A study of Mus musculus with 23 samples.

Results

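The cells described here are subdural CNS-associated macrophages (sdCAMs) that lacked the tdTomato reporter (tdT-), compared between mice given BLZ945 and mice given vehicle (CTL). Members were chosen by their labels alone: 10 of the 23 RNA-seq libraries of the series were tdT- sdCAMs, 5 from BLZ945 mice and 5 from CTL mice. All mice of both groups carried Ccr2creERT2/+ R26tdT/tdT alleles and received tamoxifen at 2 mg per day. BLZ945 was given by gavage at 200 mg/kg on 7 days, CTL mice received the vehicle, and 8 weeks later every mouse had a stroke induced by thrombin placed in the middle cerebral artery. Cells were sorted 1 day after the stroke as CD45int CD11b+ CD206int-high tdT- cells from a brain slice freed of choroid plexus, with a gate that the methods give as negative for Ly6C, Ly6G and CD11c, so no library shows these cells without a stroke. The age at the first gavage, as stated in the study's methods, falls in early adulthood. Each group held 3 female libraries (F1 to F3) and 2 male libraries (M1 and M2). Every CTL library came from 1 mouse, and the BLZ945 libraries pooled 2 mice except F2, which came from 1. Pooling and treatment therefore cannot be told apart, and p-values measure the spread between these libraries. The reporter is switched on only in cells that express Ccr2 while tamoxifen is present. In BLZ945 mice the tdT- cells can therefore include unlabelled cells of monocyte origin beside surviving resident cells.

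Subdural CNS-associated macrophages live in the leptomeninges and along brain vessels, where they take up material from the cerebrospinal fluid and can present antigen. They express the CSF-1 receptor and need its signal to survive. BLZ945 inhibits the kinase of that receptor and empties the niche, which then refills from surviving cells or from bone marrow progenitors. MHC class II molecules present peptides to CD4+ T cells and are carried by a subset of border macrophages. After a stroke, macrophages are known to respond with chemokines, cytokines and immediate early genes.

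The sorted cells carried the markers of their label in both groups. Mrc1, which encodes CD206, averaged 2920 ± 245 CPM (SD, n = 5) in BLZ945 and 3000 ± 167 CPM (SD, n = 5) in CTL libraries, against 14.3 CPM in CTL microglia (MG). The microglial receptor gene P2ry12 averaged 335 ± 43.1 CPM (SD, n = 5) in BLZ945 and 373 ± 39.8 CPM (SD, n = 5) in CTL libraries, against 4890 ± 1050 CPM (SD, n = 5) in CTL MG. Gt(ROSA)26Sor, the RNA made from the locus that carries the reporter, lay at 6.37 ± 1.85 CPM (SD, n = 5) in BLZ945 and 5.6 ± 2.34 CPM (SD, n = 5) in CTL libraries, while tdT+ sdCAMs of BLZ945 mice had 36.1 ± 6.59 CPM (SD, n = 3). Csf1r, the target of BLZ945, averaged 3070 ± 514 CPM (SD, n = 5) in BLZ945 and 3340 ± 407 CPM (SD, n = 5) in CTL libraries, with a log2 fold change of -0.12.

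Some BLZ945 libraries stood apart from the rest. F1 held transcripts of the monocyte marker list at a summed level of 689 CPM, against 105 to 190 CPM in the other BLZ945 and 83.1 to 144 CPM in the CTL libraries. Ccr2 reached 117 CPM in F1, and Itgax had 91 counts in F1 but 0 to 2 in the other BLZ945 and 0 in all CTL libraries. F2 and M2 correlated least with the other libraries and carried the lowest quality weights, 0.331 and 0.391. The same animal number appears in the labels of both F2, a female library, and M1, a male pool, yet M1 had 0 counts of the female-specific transcript Xist, which allows a female share of up to 0.267%. Some list medians below are therefore also given without F1, or without F2 and M2.

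At equal depth, all 5 BLZ945 libraries detected fewer genes than all 5 CTL libraries. After thinning to 9433960 counts, 13689 ± 724 genes (SD, n = 5) had at least 1 count in BLZ945 and 14887 ± 295 (SD, n = 5) in CTL libraries. The difference of -1197 genes gave p = 0.00794 in a two-sided exact permutation test, the smallest p that 5 against 5 libraries allow. Of the 13076 genes tested, 1204.8 ± 582 (SD, n = 5) had 0 counts in a BLZ945 library and 438 ± 140 (SD, n = 5) in a CTL library (p = 0.0159, exact permutation test, two-sided). BLZ945 libraries also resembled each other less, with mean Spearman correlations across genes of 0.80 to 0.872 within the group, against 0.904 to 0.932 in CTL. The spread on the log2 scale was larger in BLZ945 for 75.1% of 4937 well-expressed genes. Whether the number of cells sorted per library moves with these values was not tested.

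**Figure D1:**
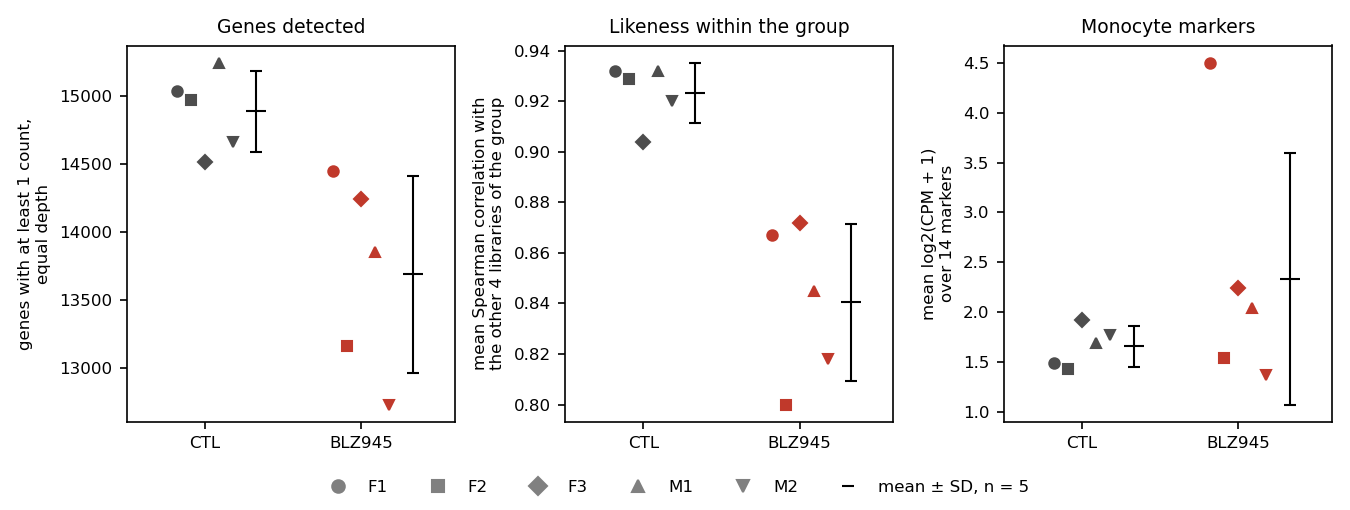
Each tdT- library (symbols, with the group mean ± SD, n = 5) by genes with at least 1 count after thinning to 9433960 counts, mean Spearman correlation with the other libraries of its group, and mean log2(CPM + 1) of the monocyte markers. All 5 BLZ945 libraries lie below the 5 CTL libraries in the first 2 panels, and BLZ945 F1 lies apart at 4.50 in the last.

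No single gene passed the test across all genes. With edgeR's quasi-likelihood test and Benjamini-Hochberg adjustment, 0 of 13076 genes (0.0%) had an adjusted p under 0.05, and the lowest adjusted p was 0.304. At an unadjusted p under 0.05, 336 genes (2.57%) were higher and 361 (2.76%) were lower in BLZ945. The groups did not overlap for 89 genes that were higher (0.681%) and 156 that were lower (1.19%). DESeq2 called 56 genes (0.428%), 25 higher and 31 lower, and 40 of them did not overlap between groups. An edgeR model of all 23 libraries called 29 genes, among them Cd79b, Galnt2, Gimap9, Hes1, Mcm5, Prss23, Shmt1 and Stard3, which are described below. Log2 fold changes were positive for 6522 genes (49.9%), with a median of -0.001. The common biological coefficient of variation, a single value for all genes tested, was 0.704. For the 4937 well-expressed genes, the median SD on the log2 scale was 0.389 in BLZ945 and 0.264 in CTL libraries. Since no gene passed the edgeR test, the account below follows 48 gene lists by their counts and medians. Since the libraries are bulk, fewer cells of a type and less RNA per cell cannot be told apart.

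Across the lists, 22 medians were above 0 and 26 below. Among lists of macrophage functions with at least 4 genes tested, MHC class II presentation and the HSC signature lay highest, both at a median log2 fold change of 0.743, and the cell cycle list lay lowest at -0.535. The mean log2 level of a list, its score, separated all 5 BLZ945 from all 5 CTL libraries for 2 lists, scavenger and phagocytic receptors and the cell cycle, both lower in BLZ945. No list separated in the other direction. Of the 46 lists with at least 4 genes tested, 15 kept the sign of their median in every alternative setting, so most medians near 0 give no direction.

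**Figure D2:**
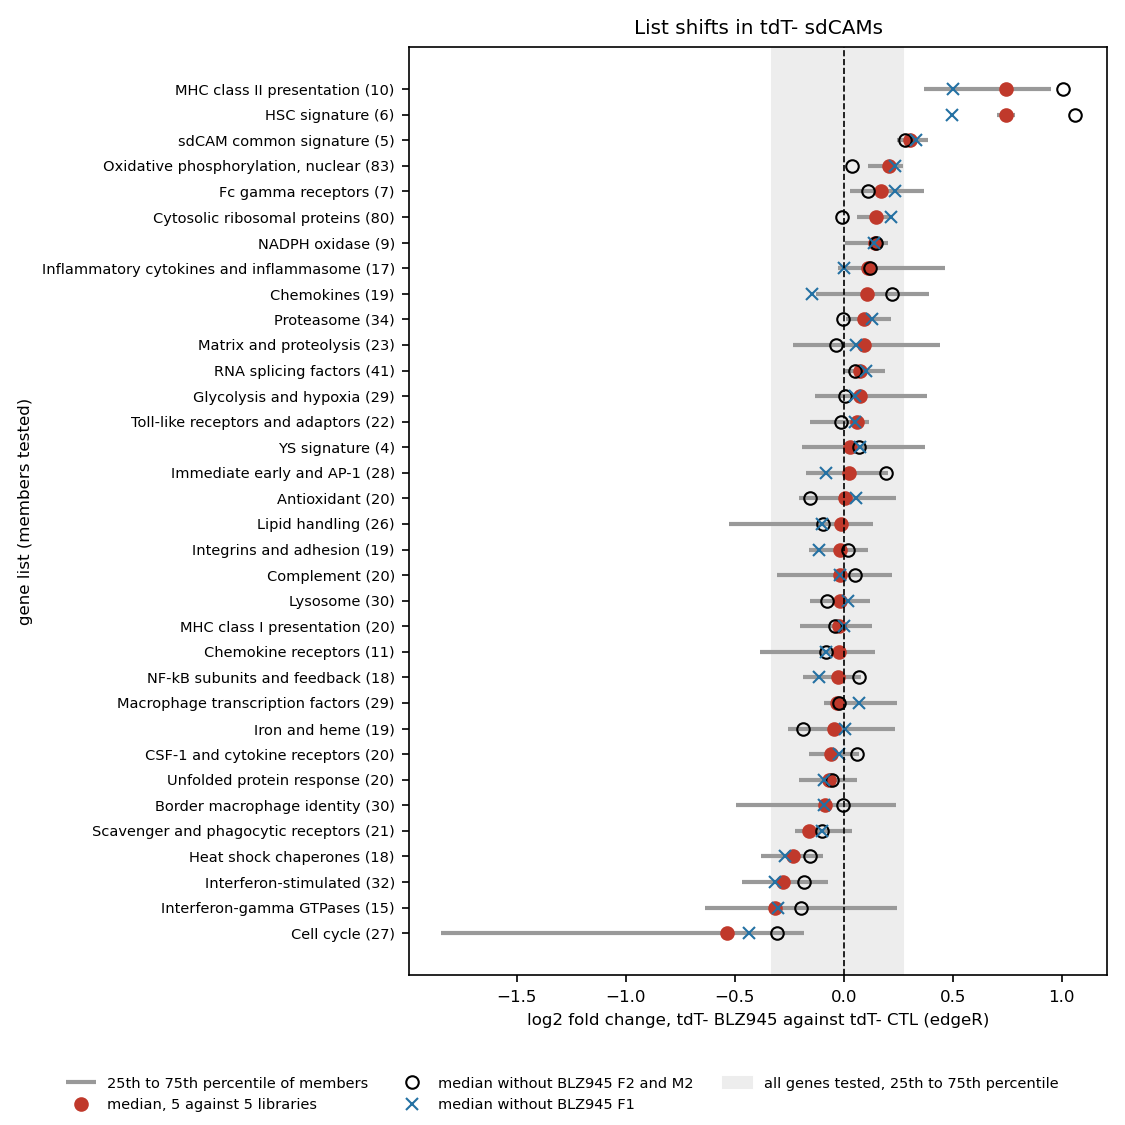
Median log2 fold change of each gene list in tdT- sdCAMs, BLZ945 against CTL, in red, with the 25th to 75th percentile of members as grey lines, beside the medians without F1 (crosses) and without F2 and M2 (open circles). The MHC class II and HSC lists lie to the right in all 3 fits, while the interferon-stimulated and cell cycle lists lie to the left.

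**Figure D3:**
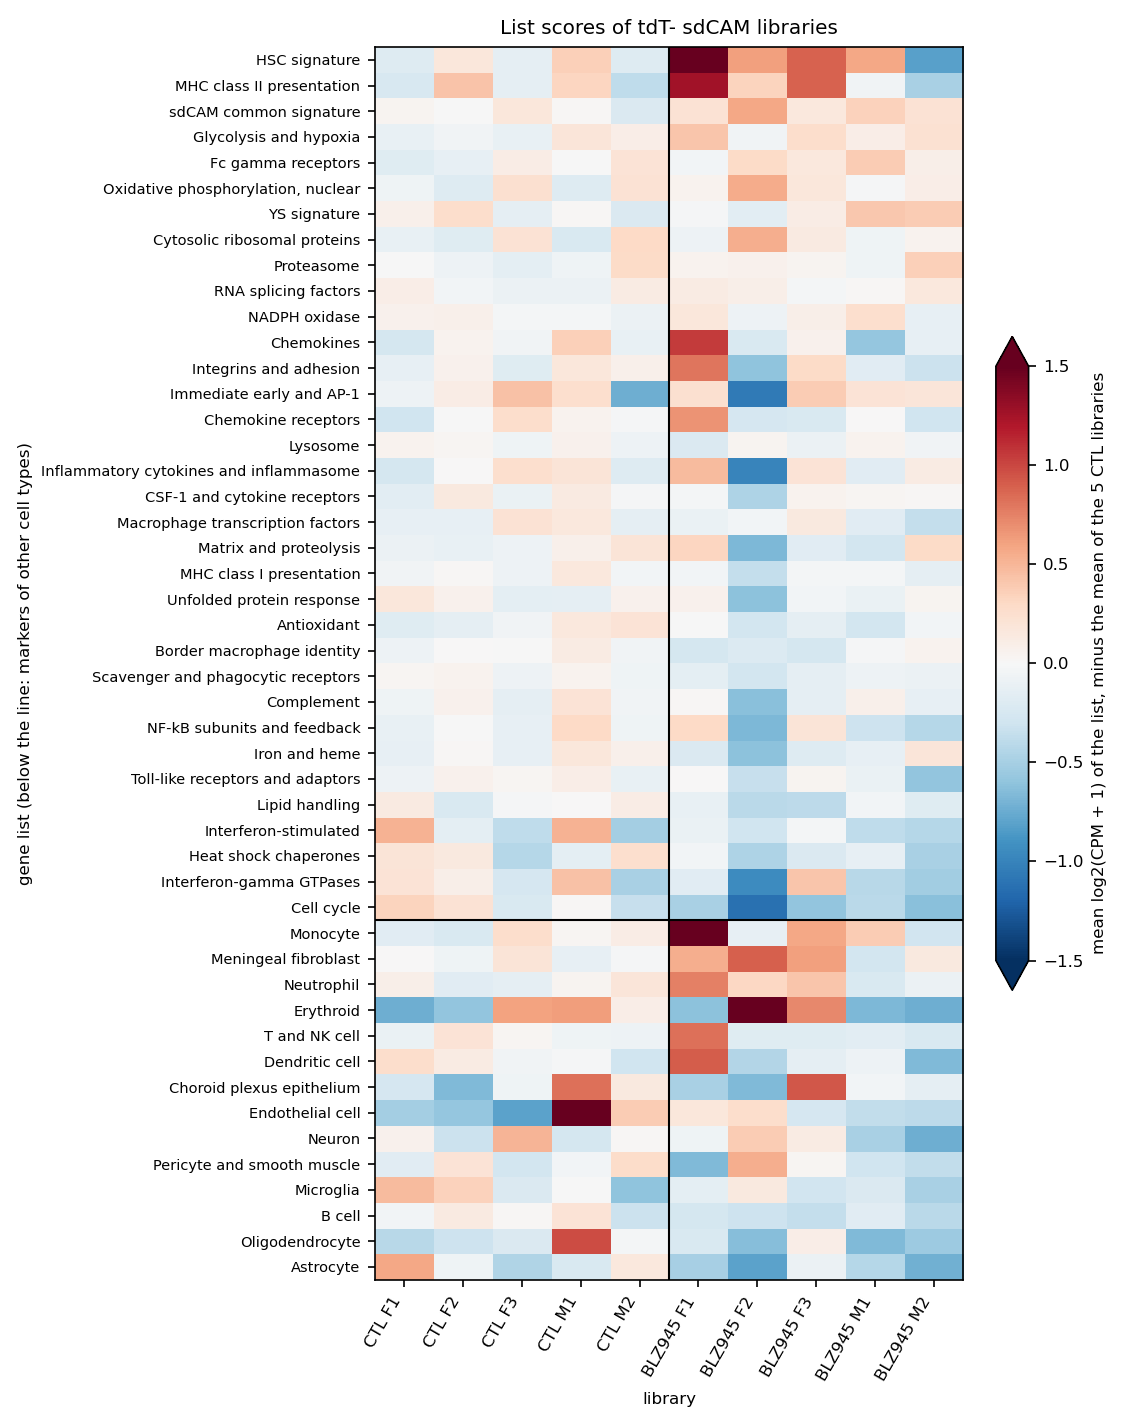
List scores (mean log2(CPM + 1) over a list's genes) of each tdT- library as a difference from the mean of the 5 CTL libraries, red where higher and blue where lower. Single BLZ945 libraries, such as F1 for monocyte markers and F2 for immediate early genes, lie far from the others of their group.

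The genes of the HSC signature, which stands for sdCAMs of haematopoietic stem cell origin, were higher on average in BLZ945. The study drew this signature, like the YS and common signatures below, from other mice, which are not analysed here. All 6 genes had positive log2 fold changes, 4 of them at an unadjusted p under 0.05, and the median was 0.743. H2-Ab1, which encodes a beta chain of MHC class II, read 636, 1150, 474, 1190 and 582 CPM in the CTL libraries F1, F2, F3, M1 and M2. In the BLZ945 libraries, in the same order, it read 2360, 908, 1930, 1150 and 648 CPM. F1 and F3 were thus above every CTL library, while the other BLZ945 libraries lay within the CTL range. The log2 fold change of H2-Ab1 was 0.80 (SE 0.35, edgeR unadjusted p = 0.0363, adjusted p = 0.865). Cd74, the invariant chain that guides MHC class II to the endosome, read 6040, 4040, 5120, 3130 and 1490 CPM in BLZ945 and 1920, 3140, 2120, 3200 and 1860 CPM in CTL libraries. Its log2 fold change was 0.70 (SE 0.30), with F1, F2 and F3 above and M2 below the CTL range. The other class II genes gave 0.76 (SE 0.36) for H2-Aa and 0.73 (SE 0.33) for H2-Eb1.

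The last members of the signature are not MHC genes. Fxyd5, a regulator of the sodium pump, read 351, 304, 297 and 236 CPM in BLZ945 F1, F2, F3 and M1, against 202, 173, 254, 170 and 264 CPM in CTL libraries, and M2 lay just above the CTL range. The log2 fold change came to 0.46 (SE 0.18, edgeR adjusted p = 0.797). Ccr2, the receptor that guides monocytes to tissue, read 117, 21.5, 8.6, 25.5 and 0 CPM in BLZ945 and 9.52, 5.65, 17.1, 10.6 and 10.5 CPM in CTL libraries. Its log2 fold change of 1.70 became 0.38 without F1 and turned to -0.22 with limma voom. The HSC scores of BLZ945 F1, F2, F3 and M1, between 8.87 and 9.99, lay above the CTL range of 8.09 to 8.64, and M2, at 7.47, lay below it. Without F1 the list median was 0.498, and without F2 and M2 it was 1.062.

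**Figure D4:**
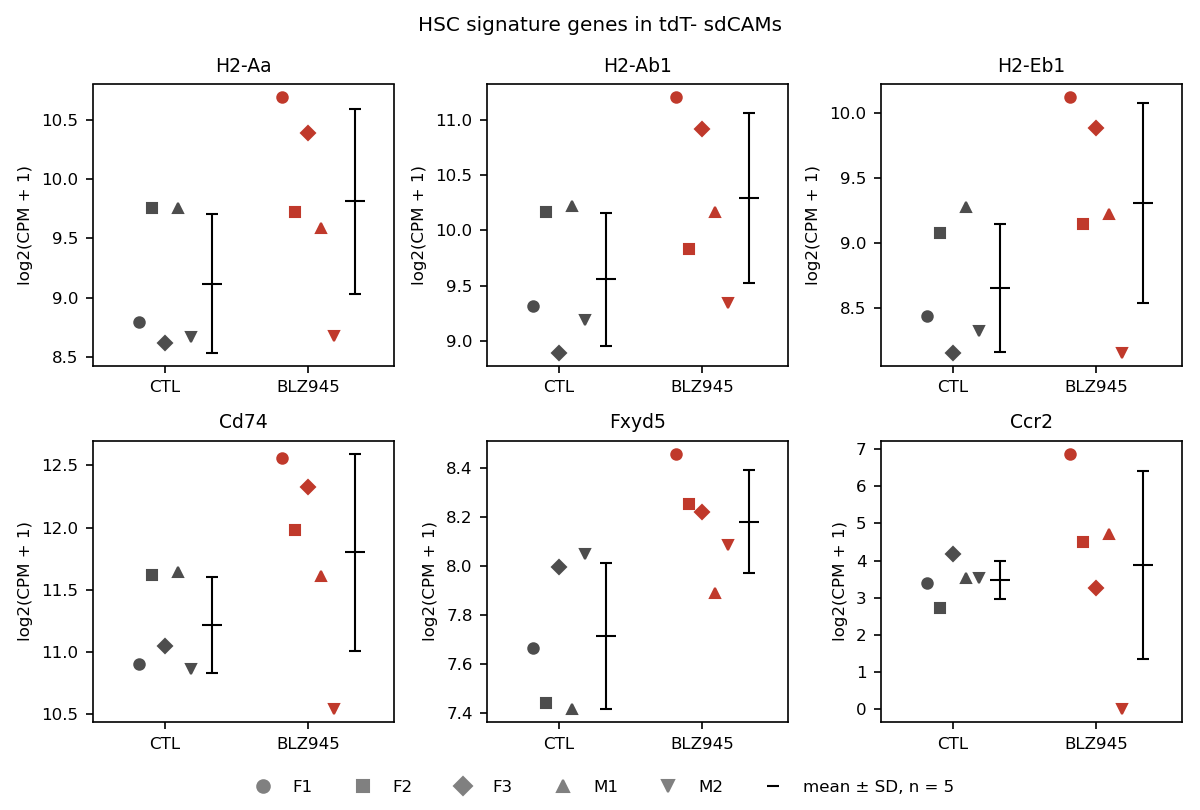
Levels of the 6 HSC signature genes in each tdT- library, as log2(CPM + 1), with the group mean ± SD (n = 5). BLZ945 F1 and F3 lie above all CTL libraries for the MHC class II genes, and BLZ945 M2 lies within or below the CTL range for all genes except Fxyd5, where it lies just above.

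MHC class II presentation as a whole followed the same genes. Of its 10 genes tested, 9 were positive and 3 passed an unadjusted p under 0.05, with a median of 0.743 that became 0.502 without F1. Both lists kept positive medians in each of the 27 alternative settings tried, and the lowest for MHC class II was 0.389, as a difference of mean log2(CPM + 1). MHC class I presentation, which shows peptides of the cytosol, had 8 of 20 genes positive and a median of -0.023, with 0 genes at an unadjusted p under 0.05 in either direction. The monocyte scores of F1 (4.50), F3 (2.24) and M1 (2.04) lay above the CTL range of 1.43 to 1.92, and F1 and F3 were also the libraries with the highest MHC class II levels. Ly6c2, which encodes a Ly6C antigen that the gate left out, had 82 counts in F1, 0 in the other BLZ945 and at most 11 in the CTL libraries. The dendritic cell score, a list of cells that also carry MHC class II, was highest in F1 too, at 3.0 against 1.43 to 2.01 in the other BLZ945 and 1.79 to 2.35 in the CTL libraries, although the gate was negative for CD11c. The part of monocyte or dendritic cell transcripts in the MHC class II levels was not tested.

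The YS signature, which stands for sdCAMs of yolk sac origin, had 2 of 4 genes positive and a median of 0.028. Folr2, a folate receptor of resident macrophages, read 158, 259, 148, 189 and 223 CPM in BLZ945 and 102, 99.3, 151, 119 and 104 CPM in CTL libraries. All BLZ945 libraries except F3 were above the CTL range, and the log2 fold change was 0.77 (SE 0.19, edgeR adjusted p = 0.436, DESeq2 adjusted p = 0.042). Lyve1, a hyaluronan receptor, gave 0.24 (SE 0.16), and Cd163, the scavenger receptor for haemoglobin, gave -0.21 (SE 0.21). In tdT+ sdCAMs, set against the same CTL libraries, Cd163 was lower by 2.27 (log2 fold change -2.27, edgeR adjusted p = 0.000532).

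Genes that the study named as common to all sdCAMs were somewhat higher, with 4 of 5 positive, 3 at an unadjusted p under 0.05 and a median of 0.303. Apoe, the lipid carrier that was the most abundant of them, read 33800, 57600, 49800, 49300 and 37900 CPM in BLZ945 and 32500, 31500, 41700, 36500 and 32600 CPM in CTL libraries. Its log2 fold change was 0.39 (SE 0.14, edgeR adjusted p = 0.748), and 3 of 5 BLZ945 libraries exceeded every CTL library. Lyz2, which encodes lysozyme, gave 0.30 (SE 0.14), and the inhibitory lectin gene Clec12a gave 0.64 (SE 0.27).

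Border macrophage identity genes were split. Of 30 genes, 14 were positive, 4 were higher and 5 lower at an unadjusted p under 0.05, and the groups did not overlap for 1 higher and 5 lower members, against 0.681% and 1.19% of all genes tested. The median was -0.085, and it turned to 0.015 without F1, F2 and M2. Cd4, which resident border macrophages also transcribe, read 34.1, 37.6, 30.3, 40.1 and 68.1 CPM in BLZ945 and 77.9, 117, 95.9, 85.3 and 97.3 CPM in CTL libraries. Every BLZ945 library was below every CTL library, and the log2 difference was -1.17 (SE 0.26, edgeR adjusted p = 0.304, DESeq2 adjusted p = 0.00935). In tdT+ sdCAMs the log2 fold change of Cd4 against the same CTL libraries was -5.65. Cd209b, a C-type lectin of border macrophages, read 129, 223, 182, 166 and 181 CPM in BLZ945 and 276, 330, 250, 476 and 251 CPM in CTL libraries, again without overlap (log2 fold change -0.85, SE 0.21, edgeR adjusted p = 0.436, DESeq2 adjusted p = 0.0475). Its relative Cd209a, listed here with dendritic cells, read 116, 44.5, 103, 136 and 18.8 CPM in BLZ945 and 395, 420, 199, 723 and 381 CPM in CTL libraries. This was the lowest log2 fold change of the lectins described, at -2.34 (SE 0.52, edgeR adjusted p = 0.304, DESeq2 adjusted p = 0.0289). Reads can be split among the similar genes of the Cd209 family, so their values are uncertain.

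**Figure D5:**
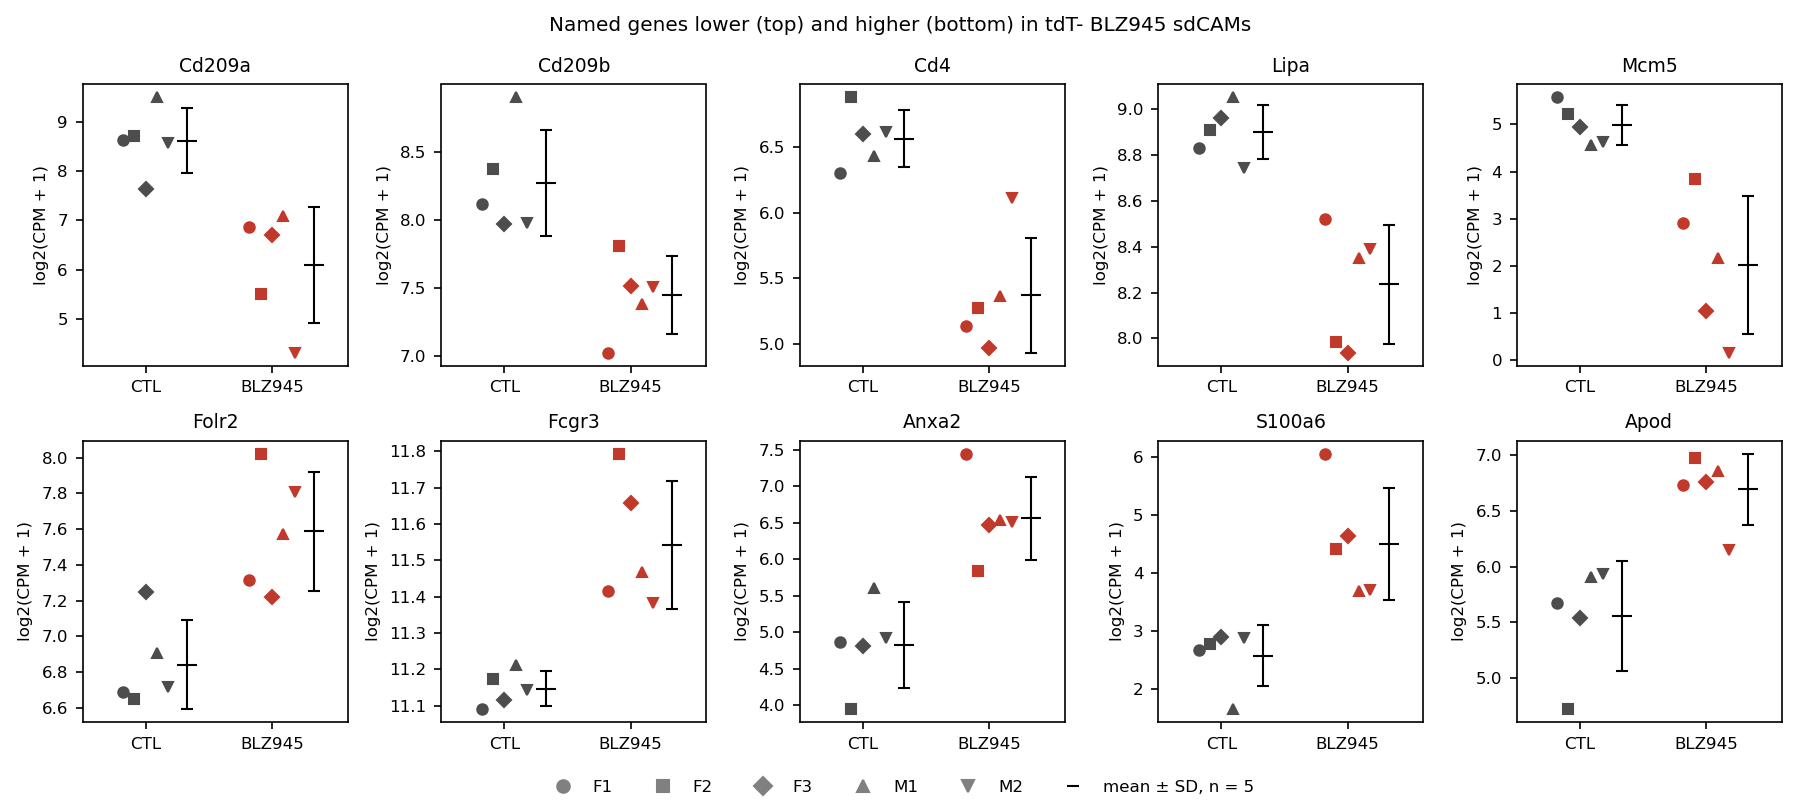
Levels, as log2(CPM + 1), of 5 genes that were lower (Cd209a, Cd209b, Cd4, Lipa, Mcm5) and 5 that were higher (Folr2, Fcgr3, Anxa2, S100a6, Apod) in tdT- BLZ945 sdCAMs, for each library, with the group mean ± SD (n = 5). The groups overlap only for Folr2, where BLZ945 F3 lies just within the CTL range.

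Receptors for uptake were lower on average. Of 21 scavenger and phagocytic receptor genes, 7 were positive, 3 were lower at an unadjusted p under 0.05, and the median was -0.162, which was -0.08 without F2 and turned to 0.008 without F1, F2 and M2. The list score was 6.24 to 6.43 in BLZ945 and 6.44 to 6.57 in CTL libraries, a narrow separation. Cd36, the receptor for oxidised lipoproteins, read 440, 417, 331, 446 and 593 CPM in BLZ945 and 673, 697, 608, 787 and 552 CPM in CTL libraries (log2 fold change -0.57, SE 0.16, edgeR adjusted p = 0.541). M2 alone lay within the CTL range. Colec12, a scavenger receptor with a collagen-like stalk, gave -0.60 (SE 0.22) and Scarb1, the receptor for high-density lipoprotein, gave -0.77 (SE 0.33).

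Fc gamma receptors, which bind antibody-coated particles, were higher on average, although their scores overlapped. The scores ran from 9.23 to 9.65 in BLZ945 and from 9.09 to 9.47 in CTL libraries. Of 7 genes, 5 were positive and 2 were higher at an unadjusted p under 0.05, with a median of 0.169. The median was 0.087 without BLZ945 F2 or CTL F1 and 0.297 without CTL M2. Fcgr3 read 2730, 3550, 3230, 2830 and 2670 CPM in BLZ945 and 2180, 2310, 2220, 2370 and 2260 CPM in CTL libraries. All 5 BLZ945 libraries were above all CTL libraries, although the log2 fold change was small at 0.41 (SE 0.11, edgeR adjusted p = 0.492, DESeq2 adjusted p = 0.0176). Fcgr4 gave 0.42 (SE 0.19), with 4 of 5 BLZ945 libraries above the CTL range. The NADPH oxidase list, whose products kill engulfed microbes, had 7 of 9 genes positive and a median of 0.143 (0.091 without M1), with Ncf1, a cytosolic subunit, at 0.40 (SE 0.17).

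Lipid, lysosome and iron lists had medians near 0 that varied with the setting. Lipid handling had 11 of 26 genes positive (median -0.015), the lysosome 14 of 30 (median -0.018), and iron and heme 9 of 19 (median -0.043). With limma voom the lipid median was -0.226, with quality weights the lysosome median was -0.113, and without F2 and M2 the iron and heme median was -0.186. Within them, Lipa, the lysosomal acid lipase that hydrolyses cholesteryl esters, read from 244 CPM (F3) to 366 CPM (F1) in BLZ945 and from 428 CPM (M2) to 530 CPM (M1) in CTL libraries. The groups did not overlap (log2 fold change -0.65, SE 0.15, edgeR adjusted p = 0.377, DESeq2 adjusted p = 0.0268). Slc40a1, the iron exporter ferroportin, gave -0.63 (SE 0.26), with 4 of 5 BLZ945 libraries below the CTL range, and Hfe, which tunes iron uptake, gave 0.38 (SE 0.14), with 4 of 5 above it. Slc48a1, which carries heme out of the lysosome, gave -0.60 (SE 0.24). Ctss, a lysosomal protease that processes antigen, gave 0.32 (SE 0.12), and Gaa, the lysosomal alpha-glucosidase, gave -0.56 (SE 0.22).

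Interferon-stimulated genes were lower on average in BLZ945, although their scores overlapped. Only 4 of 32 genes were positive, the median was -0.279, and it was negative in every alternative setting tried. It was nearer to 0 without 1 of the CTL libraries, at -0.077 without M1 and -0.114 without F1, and -0.181 without BLZ945 F2 and M2. The scores ran from 5.63 to 6.03 in BLZ945 and from 5.55 to 6.57 in CTL libraries, the highest CTL libraries being F1 and M1. Stat2, a transducer of type I interferon signals, read 37.1, 21.8, 42.4, 42.4 and 42.9 CPM in BLZ945 and 65.5, 67, 49.1, 78.8 and 45.1 CPM in CTL libraries (log2 fold change -0.71, SE 0.26, edgeR adjusted p = 0.748). Ifit2, an antiviral effector, gave -1.10 (SE 0.45). The GTPases induced by interferon gamma had 6 of 15 genes positive and a median of -0.315, which turned to 0.032 without F2 and M1 (the libraries that name the same animal), with Gbp9 at -1.22 (SE 0.37) and below every CTL library in all 5 BLZ945 libraries. In MG of the same treatment groups the median of the interferon-stimulated list was 0.824.

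Stroke-related inflammatory lists had small medians that moved with the libraries left out. Inflammatory cytokines and inflammasome genes had 12 of 17 positive and a median of 0.111, which became 0.002 without F1. Chemokines had 13 of 19 positive and a median of 0.107, which became -0.144 without F1. It was 0.345 without CTL M1 and 0.42 without BLZ945 F2 and M1. Chemokine receptors had 5 of 11 positive (median -0.023), and NF-kB subunits and feedback genes 7 of 18 (median -0.026, or 0.069 without F2 and M2). Immediate early and AP-1 genes had 15 of 28 (median 0.025, or -0.082 without F1, 0.204 without BLZ945 F2 and -0.155 without CTL M2). The chemokine gene Ccl6 gave 0.74 (SE 0.25, edgeR adjusted p = 0.688), with 2 of 5 BLZ945 libraries above the CTL range. Il1rn, which encodes the antagonist of the interleukin-1 receptor, read 110, 3.9, 81.5 and 97.4 CPM in BLZ945 F1, F2, F3 and M1, was highest in M2, and read 7.56, 15.8, 22, 23.7 and 73 CPM in CTL libraries. Its log2 fold change of 1.99 (SE 0.73) joined 4 BLZ945 libraries above the CTL range and F2 below it. The NF-kB subunit gene Rel gave -1.13 (SE 0.46).

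The remaining sensing and stress lists were near 0 or below. Toll-like receptors and adaptors had 14 of 22 genes positive (median 0.059), complement 10 of 20 (median -0.018) and antioxidant genes 10 of 20 (median 0.005). Without F2 and M2 the antioxidant median was -0.155 and that of the Toll-like receptor list -0.014. As a difference of mean log2(CPM + 1), the Toll-like receptor median was -0.195. Heat shock chaperones, by contrast, had 3 of 18 genes positive and a median of -0.235, with 0 genes at an unadjusted p under 0.05 in either direction. That median was -0.125 without CTL M2, -0.369 without CTL F3 and -0.155 without BLZ945 F2 and M2. The unfolded protein response had 8 of 20 positive (median -0.068), with Eif2ak3, its kinase sensor in the endoplasmic reticulum, at -0.59 (SE 0.26). Tlr4, the receptor for bacterial lipopolysaccharide, gave -0.60 (SE 0.25).

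Lists of cell structure and control showed a few single members. CSF-1 and cytokine receptors had 8 of 20 genes positive (median -0.058, or 0.062 without F2 and M2), and Csf2ra, a subunit of the GM-CSF receptor, was higher in all 5 BLZ945 libraries, at 191, 152, 176, 205 and 159 CPM against 140, 136, 146, 151 and 116 CPM in CTL (log2 fold change 0.36, SE 0.14, edgeR adjusted p = 0.769). Macrophage transcription factors had 13 of 29 positive (median -0.031), with Irf4 at -1.06 (SE 0.45). Integrins and adhesion had 8 of 19 positive (median -0.017), matrix and proteolysis 15 of 23 (median 0.091, or -0.036 without F2 and M2), and glycolysis and hypoxia 16 of 29 (median 0.074). Timp2, an inhibitor of matrix metalloproteinases, gave 0.33 (SE 0.14), and the glycolytic gene Pfkp gave 0.69 (SE 0.29).

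Cell cycle genes were lower on average in BLZ945, mainly among those at low levels, although 0 were called by edgeR. Of 27 genes, 6 were positive, 3 were lower at an unadjusted p under 0.05, and the score was 1.58 to 2.30 in BLZ945 against 2.36 to 3.03 in CTL libraries. The median of -0.535 was -0.355 without BLZ945 F3, -0.314 without CTL F2 and -0.307 without BLZ945 F2 and M2. It was -0.211 with at least 10 counts in every tdT- library and -1.082 with limma voom. Mcm5, a subunit of the replicative helicase, read 6.53, 13.3, 1.04, 3.49 and 0.109 CPM in BLZ945 and 46.7, 36.5, 29.9, 22.8 and 23.6 CPM in CTL libraries. All BLZ945 libraries were below all CTL libraries (log2 fold change -2.70, SE 0.73, edgeR adjusted p = 0.518, DESeq2 adjusted p = 0.0289). Tpx2, a spindle assembly factor, had 2.07, 0.103, 0, 0 and 0 CPM in BLZ945 and 2.53 to 11.8 CPM in CTL libraries. The 5 members with an average log2 CPM of at least 5 had a median of 0.160. The shift of the list thus lay in genes under that level. Among all tested genes under 0 average log2 CPM, 40.3% were positive, with a median of -0.314. The share was 48.3% at 0 to 2 (median -0.038), 46.2% at 2 to 4 (median -0.052) and 47.5% at 4 to 6. It was 60.3% at 6 to 8 and 62.7% over 8. BLZ945 libraries also had more zero counts (above), and the part of these in the list shift was not tested.

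Large complexes of general metabolism had mostly small positive values. Of 83 nuclear oxidative phosphorylation genes, 78 were positive, with a median of 0.207 and 2 genes higher at an unadjusted p under 0.05. Over all genes tested, 2.57% were higher at that p. Well-expressed genes in general leaned the same way, with 60.3% positive at 6 to 8 average log2 CPM (median 0.057) and 62.7% over 8 (median 0.061). Cytosolic ribosomal proteins had 67 of 80 positive (median 0.146), the proteasome 27 of 34 (median 0.094) and splicing factors 30 of 41 (median 0.076). Without F2 and M2 the medians were 0.039 for oxidative phosphorylation and -0.010 for ribosomal proteins, and without F2 alone they were 0.047 and 0.004. F2 had the highest score of the 10 libraries for both lists, whereas M2 lay within the CTL range. The proteasome median turned to -0.006 without F2 and M2. Ribosomal protein genes have many near-identical copies, so their counts are uncertain.

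Markers of other cell types were low, with some differences between groups. Monocyte markers had 9 of 10 genes positive and a median of 2.020, which became 1.243 without F1 and 0.693 without F1, F2 and M2. S100a6, a calcium-binding protein on that list, read 65.4, 20.2, 23.8, 11.9 and 12 CPM in BLZ945 and 5.37, 5.88, 6.48, 2.16 and 6.36 CPM in CTL libraries. All 5 BLZ945 libraries were higher (log2 fold change 2.34, SE 0.53, edgeR adjusted p = 0.304, DESeq2 adjusted p = 0.00417), and the value without F1 was 1.69. Neutrophil markers had 5 of 5 tested genes positive, with a median of 0.597 that turned to -0.098 without F2 and M2 and was 0.07 without F2. They had summed levels of 141 to 261 CPM in BLZ945 and 123 to 225 CPM in CTL libraries and the defining genes Cxcr2 and Ngp at 0 in all 10. Only 2 markers of T and NK cells could be tested (1 positive, median 0.023), the list score was 1.05 in F1 against 0.0 to 0.07 in the other BLZ945 and 0.13 to 0.43 in the CTL libraries, and Cd8a, Gzma and Gzmb were at 0 throughout. B cell markers had 1 of 6 genes positive (median -0.576, -1.163 without F2 and -0.237 without CTL M2), Cd79a being at 0 in all libraries. Cd79b, a subunit of the B cell receptor, read 4.25, 5.95, 5.3, 5.28 and 0 CPM in BLZ945 and 23.9, 23.7, 36.8, 30.5 and 23.3 CPM in CTL libraries, without overlap (log2 fold change -2.73, SE 0.69, edgeR adjusted p = 0.436, DESeq2 adjusted p = 0.0079). Dendritic cell markers had 3 of 6 genes positive and a median of -0.152, with Xcr1 at 0. The median was -0.384 without F1 and -0.036 without M2. Their summed level, most of it Cd209a in the CTL libraries, was 60.8 to 266 CPM in BLZ945 libraries and above that, up to 795 CPM, in all CTL libraries. The score, which weights the markers equally on the log scale, did not follow the sum, since F1 lay above the CTL range (3.0) and F2 and M2 lay below it (1.65 and 1.43).

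Meningeal fibroblast markers were higher in sum in every BLZ945 library, at 385 to 1330 CPM against 181 to 329 CPM in CTL. Ptgds and Apod made up 82.4% to 95.1% of the sum in each library. The other markers summed to 48.5 to 79.2 CPM in F1, F2, F3 and M2 and to 22.2 CPM in M1, against 29.7 to 40.4 CPM in CTL. The list score overlapped, at 2.13 to 3.30 in BLZ945 (lowest in M1) and 2.28 to 2.59 in CTL libraries. Of 11 genes, 8 were positive, 4 were higher at an unadjusted p under 0.05, and the median was 0.375, or 1.077 without CTL F1. Ptgds, which makes prostaglandin D2, read 1130, 432, 312 and 267 CPM in BLZ945 F2, F3, M1 and M2, was lower in F1 but above the CTL range, and read 122, 126, 243, 113 and 181 CPM in CTL libraries (log2 fold change 1.61, SE 0.38, edgeR adjusted p = 0.376, DESeq2 adjusted p = 0.0473). Apod, a lipid carrier, read 105, 125, 107, 115 and 69.8 CPM in BLZ945 and 49.9, 25.4, 45.6, 58.9 and 60.2 CPM in CTL libraries (log2 fold change 1.12, SE 0.24, edgeR adjusted p = 0.304, DESeq2 adjusted p = 0.00508). Neither gene overlapped between groups, whereas the collagen gene Col1a1 lay between 0 and 4.97 CPM in all 10 libraries. The part of fibroblast RNA in the other results was not tested.

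The remaining marker lists of brain and vessel cells had medians below 0. They were -0.111 for microglia (4 of 10 positive), -0.062 for neurons (5 of 10), -0.566 for astrocytes (4 of 11), -0.699 for oligodendrocytes (2 of 11), -0.620 for endothelial cells (4 of 11), -0.253 for pericytes and smooth muscle (2 of 6) and -0.232 for choroid plexus epithelium (2 of 5). Leaving out 1 library turned the microglia, neuron, endothelial, pericyte and choroid plexus medians above 0, and moved that of oligodendrocytes to -0.247 without CTL M1 and that of astrocytes to -0.362 without CTL F1. Without F2 and M2 the oligodendrocyte median was -0.171. Erythroid genes had 3 of 3 positive and a median of 2.391, which turned to -0.812 without F2 and M2. F2 held a summed 297 CPM of them, and Hba-a2 and Slc4a1 were at 0 throughout. Among microglial genes, Siglech, a sialic acid-binding lectin, read 391, 620, 338, 421 and 182 CPM in BLZ945 and 222, 234, 195, 162 and 102 CPM in CTL libraries (log2 fold change 1.09, SE 0.29, edgeR adjusted p = 0.518, DESeq2 adjusted p = 0.0364), whereas Tmem119 averaged 28.1 and 55.0 CPM.

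Outside the lists, the smallest unadjusted p among well-expressed genes without overlap belonged to Anxa2, a calcium-dependent membrane-binding protein. It read 174, 56.5, 87.8, 91.6 and 90.2 CPM in BLZ945 and 28.1, 14.4, 27, 47.7 and 29.4 CPM in CTL libraries. The log2 fold change was 1.77 (SE 0.32, edgeR unadjusted p = 4.32e-05, adjusted p = 0.304, DESeq2 adjusted p = 0.000217), and it stayed between 1.48 and 2.02 when any 1 library was left out. The gene was chosen by its values in these same libraries, so that range is no independent support. Hes1, a repressor downstream of Notch, read 35, 27.8, 99.4, 68.7 and 31.6 CPM in BLZ945 and 5.45, 10.7, 14.1, 9.89 and 6.51 CPM in CTL libraries, a log2 fold change of 2.49. Klf9, a transcription factor that responds to glucocorticoids, read 44.6, 58.7, 77, 98.9 and 127 CPM in BLZ945 and 39.4, 43.5, 28.5, 25.7 and 37 CPM in CTL libraries (log2 fold change 1.22, SE 0.27, DESeq2 adjusted p = 0.00769). Also higher in all 5 BLZ945 libraries were Alox5ap, needed for leukotriene synthesis (0.62, SE 0.15), Il2rg, the common gamma chain of cytokine receptors (0.88, SE 0.22), and Acaa2, an enzyme of mitochondrial fatty acid oxidation (1.04, SE 0.25). These values are log2 fold changes, and none passed the edgeR test of the 13 sdCAM libraries. In the edgeR model of all 23 libraries, Hes1 was called (adjusted p = 0.00689), as it was by DESeq2 (adjusted p = 0.000372).

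Among well-expressed genes lower in all 5 BLZ945 libraries, Galnt2, which starts mucin-type glycosylation, read 63, 35.6, 58.3, 47.8 and 38.9 CPM against 95.7, 111, 75.2, 78.5 and 99.8 CPM in CTL (log2 fold change -0.92, SE 0.20, edgeR adjusted p = 0.304, DESeq2 adjusted p = 0.0113). Stard3, a cholesterol-binding protein of late endosomes, gave -0.71 (SE 0.19), Gatm, an enzyme of creatine synthesis, -0.58 (SE 0.18), and the sphingosine-1-phosphate receptor gene S1pr2 -0.70 (SE 0.22).

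Several genes with the smallest DESeq2 adjusted p were at or near 0 in BLZ945. Gimap9, a GTPase of the immunity-associated family, had 0, 0, 0, 0 and 2 counts in BLZ945 libraries and 53, 154, 71, 56 and 63 counts in CTL libraries (edgeR adjusted p = 0.304, DESeq2 adjusted p = 0.000217). Shmt1, of one-carbon metabolism, lay at 0.207, 0.205, 0.347, 0 and 1.2 CPM in BLZ945 and 5.91 to 12.3 CPM in CTL libraries. Prss23, a serine protease, was at 0 in all BLZ945 libraries and, with 3 counts per library as the floor, at least 6.9-fold lower than in CTL, and Rnase2a was at least 12.4-fold lower. These are genes of low level, where the BLZ945 libraries had more zeros in general.

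A last question was whether the BLZ945 difference in tdT- sdCAMs differed from that in MG of the same mice. The model of both populations had no term for the mouse or pool. In it, the difference between the effects passed an edgeR adjusted p under 0.05 for 5 of 12697 genes (0.0394%). These were Gimap9 (adjusted p = 0.0192), Zfp493 (0.0322), Ano7 (0.0405), Adam33 (0.0456) and Gm9958 (0.0456), all with a lower value of the effect in sdCAMs. With the replicate block, which keeps the pairing of both populations within a mouse or pool, 1 gene was called, and with at least 10 counts in every library 0 were called. Ano7 and Adam33 were chosen after their values were seen. In MG alone, 46 of 11264 genes (0.408%) were called between BLZ945 and CTL. The HSC signature had a median of -0.615 in MG against 0.743 in tdT- sdCAMs. H2-Eb1 was lower in BLZ945 MG (log2 fold change -1.40, edgeR adjusted p = 0.0354), and the test of the difference between populations gave an adjusted p of 0.103 for H2-Eb1 and 0.159 for H2-Aa, so it did not pass.

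The tdT+ sdCAMs of BLZ945 mice were set beside the tdT- cells against the same CTL libraries, so both comparisons share their controls. For tdT+ cells, 37 of 13076 genes (0.283%) were called by edgeR, and the HSC signature had a median log2 fold change of 1.857, against 0.743 in tdT- cells. Timd4, a phosphatidylserine receptor of long-lived macrophages, had a log2 fold change of -3.96 in tdT+ cells (edgeR adjusted p = 0.000464) and -0.31 (SE 0.31) in tdT- cells. For Slc40a1 the values were -2.22 in tdT+ (edgeR adjusted p = 0.0056) and -0.63 in tdT- cells.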

How the data were processed

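The authors deposited raw counts of reads for each gene symbol. According to the submitters' processing notes, the tools were bcl2fastq 2.20, STAR 2.7.11a, featureCounts 2.0.6 and DESeq2 1.46.0, with a Gencode annotation. The libraries were made by a SMART-Seq protocol for low input. The genome build of this table was not clear, and neither was the handling of reads matching several genes, so genes are given by symbol and near-identical families (Cd209, Ms4a, H2, Ccl, Fcgr, ribosomal and globin genes) are uncertain.

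Total counts of the 10 tdT- libraries lay between 9433960 and 13276081, and 3 counts, taken as the floor, equalled 0.226 to 0.318 CPM. Floors cover counting error only, since PCR reads without molecular identifiers are not independent molecules. Groups came from the sample titles. The counts of all 13 sdCAM libraries were tested with edgeR 4.0.16 (R 4.3.3; TMM factors, filterByExpr, quasi-likelihood test, Benjamini-Hochberg adjustment), comparing tdT- BLZ945 with tdT- CTL. CPM used library totals multiplied by TMM factors. DESeq2 1.42.0, limma 3.58.1 (voom), other factors, filters and left-out libraries were alternatives. List scores were means of log2(CPM + 1). Lists are described by counts and medians, with no test. Library measures were compared by exact permutation tests (scipy 1.17.1). The fits were tested on simulated data.

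Named genes were the signature members, up to 3 per list with the smallest unadjusted p plus the most abundant one, outside the lists up to 10 in each direction without overlap and with an average log2 CPM of at least 5, the 10 with the smallest DESeq2 adjusted p, and Gt(ROSA)26Sor, Itgax and Csf1r. Col1a1, Ly6c2, P2ry12, Timd4 and markers given as 0 were chosen after their values were seen. The members and lists were chosen with earlier results of these data known. Mitochondrially encoded genes were not analysed here.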

Additional observations from a re-analysis of the deposited data

Results flagged for a closer look

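Dixon's test marked 23 library values that lay far from the others of their group, of 264 groups of values tested, where chance alone marks about 1 in 20. The monocyte score of BLZ945 F1 was 4.50 against 1.37 to 2.24 in the other BLZ945 libraries, its T and NK cell score was 1.05 against 0.0 to 0.07, Itgax read 9.43 CPM against 0 to 0.218, Ly6c2 read 8.5 CPM against 0, and Tpx2 read 2.07 CPM against 0 to 0.103. BLZ945 F2 was low for immediate early and AP-1 genes (6.33 against 7.57 to 7.77), the unfolded protein response (5.84 against 6.36 to 6.53), CSF-1 and cytokine receptors (6.45 against 6.89 to 6.97) and Stat2 (21.8 CPM against 37.1 to 42.9). BLZ945 M2 had 0 CPM of Cd79b (others 4.25 to 5.95), 0.218 CPM of Gimap9 and 0.109 CPM of Zfp493 (others 0), and F3 had 141 CPM of Clec12a (others 281 to 330).

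Among CTL libraries, M1 stood apart for the NF-kB score (5.70 against 5.28 to 5.39), the oligodendrocyte score (3.87 against 2.48 to 2.86), S100a6 (2.16 CPM against 5.37 to 6.48) and Slc40a1 (784 CPM against 509 to 521). M2 stood apart for Ccl6 (2450 CPM against 1080 to 1340) and Pfkp (12.1 CPM against 23.1 to 29.4). F1 was high for Shmt1 (12.3 CPM against 5.91 to 7.29), F2 for Fcgr4 (57.2 CPM against 47.2 to 49.4), and F3 was low for Gm9958 (0.286 CPM against 3.87 to 6.82) and high for Ly6c2 (1.05 CPM against 0 to 0.153).

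The test of the difference between the BLZ945 effects in tdT- sdCAMs and MG called Gimap9, Zfp493, Ano7, Adam33 and Gm9958, at edgeR adjusted p of 0.0192, 0.0322, 0.0405, 0.0456 and 0.0456. That model had no term for the mouse or pool that gave both libraries. The count of 5 became 1 with the replicate block, which has that term, and 0 with at least 10 counts in every library. The marked values are given without an explanation, none having been tested.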

How the results depend on the processing

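The count of 0 genes called by edgeR became 56 with DESeq2, 29 with all 23 libraries in the model, 1 with limma voom and 4 with limma voom and quality weights, and it was 0 in the other settings, including those that left out 1 library. DESeq2 and the model of all 23 libraries shared 25 called genes. The 697 genes at an unadjusted p under 0.05 became 1456 with all 23 libraries, 1176 with voom, 1228 with voom and quality weights and 1942 without the filter on low counts. The 5 genes of the comparison with MG became 94 with DESeq2, 0 with at least 10 counts in every library and 1 with the replicate block, there the mouse or pool that gave both libraries. The causes were not tested. Library numbers are shared between treatments by different mice, so they pair no tdT- BLZ945 with a tdT- CTL library: deviations of same-numbered libraries correlated at 0.11 (F1), -0.179 (F2), -0.0434 (F3), 0.164 (M1) and 0.153 (M2), and 2 of 5 correlated best with their own number. With the replicate block, the difference in detected genes was -1197.4 with an exact sign-flip permutation p of 0.0625, the smallest that 5 pairs allow, and 0 genes were called.

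The log2 fold change of Ccr2 turned to -0.22 with voom, and without F1, F2 and M2 those of Cd163, Csf1r and Mrc1 turned to 0.01, 0.03 and 0.05. The medians of the HSC and MHC class II lists ran from 0.498 to 0.942 and from 0.502 to 0.918 when 1 library was left out, and that of the YS signature from -0.04 to 0.138. The median of all genes shifted to -0.131 with voom and -0.103 with the replicate block, so small list medians carry that shift there. Settings without F1, F2 or M2 together were chosen after seeing the data. At these depths, values under 0.226 to 0.318 CPM rest on fewer than 3 counts.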
